A study of Mus musculus with 14 samples.

Results

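Pericentral hepatocyte genes are genes that hepatocytes around the central vein of the liver lobule use more than hepatocytes elsewhere. The 10 genes described here, Glul, Oat, Slc1a2, Rhbg, Lgr5, Axin2, Cyp2e1, Cyp1a2, Cyp2c29 and Cyp2c37, were taken by name from the 24732 features of both count tables, and each was found. They were measured in liver and, for contrast, in aorta of HuBL and BT3xHuBL mice kept for 52 weeks on a normal laboratory diet, with 4 liver and 3 aorta libraries per genotype. The labels name no strain, allele, sex or age and do not spell out the genotypes. As background knowledge of the field, the HuBL strain has a transgene for human apolipoprotein B and the BT lines a transgenic T cell receptor specific for that protein, so both genotypes share the apolipoprotein B transgene. Nothing in the labels ties a library to one animal, so p-values measure the spread between these libraries, which may be technical. In whole tissue, fewer cells of a type and less RNA per cell cannot be told apart.

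Blood enters the liver lobule at the portal vein and leaves at the central vein, and hepatocytes along that path divide the work between them. Endothelial cells of the central vein secrete Wnt ligands and R-spondins, which hold beta-catenin active in the nearest hepatocytes. Those cells take up the ammonia that periportal urea synthesis has missed, build it into glutamine, and carry much of the cytochrome P450 system that oxidises drugs and solvents.

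Liver libraries held 13228123 to 17992459 counts and aorta libraries 41933263 to 65539765. Levels are given as CPM, counts scaled to one common library total after TMM scaling within each tissue. QuantSeq counts about one tag per transcript near its 3′ end, so CPM are not multiplied by transcript length and can be compared between genes. The tissue labels fitted their markers. Proteins that hepatocytes secrete summed to 133000 to 180000 CPM per liver library and 176 to 240 CPM per aorta library, where most of it was Trf. Smooth muscle markers summed to 13.6 to 40.6 CPM per liver library and 12100 to 16500 CPM per aorta library. Variable segments of the T cell receptor beta chain summed to 109, 60 and 187 counts in HuBL aortas 1 to 3 and 49, 71 and 38 counts in BT3xHuBL aortas 1 to 3. Since the labels do not name the segments of the BT3 receptor, these counts do not check the genotype.

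The stretches just upstream of the start are shown for 5 members, as the RefSeq promoter table (GRCm38.p6) gives them: Glul and Slc1a2, whose liver values separated the genotypes, Cyp2e1, the most abundant member, and Cyp2c29 and Cyp2c37, a pair from one gene family. They run 5′ to 3′ on the coding strand, all of which is the plus strand, at chr1:153899679-153899928, chr2:102706188-102706355, chr7:140763569-140763738, chr19:39286835-39287073 and chr19:39992174-39992423. Each stretch stops before the first base that a GENCODE M21 exon of the same gene covers, and everything after that base was left off. The RefSeq start used lies 47.8 kb inside the GENCODE span of Slc1a2, 17.7 kb inside that of Cyp2c29 and 0.08 kb inside that of Cyp2e1, so these stretches belong to internal starts. Capitals mark a match, on either strand, to CTTTGA (core of the TCF and LEF site through which beta-catenin acts), GCGTG (core of the aryl hydrocarbon receptor site), GTTAAT (part of the HNF1 site), AGGTCA (nuclear receptor repeat unit) or TATAAA (the box that helps to place the transcription start).
Glul: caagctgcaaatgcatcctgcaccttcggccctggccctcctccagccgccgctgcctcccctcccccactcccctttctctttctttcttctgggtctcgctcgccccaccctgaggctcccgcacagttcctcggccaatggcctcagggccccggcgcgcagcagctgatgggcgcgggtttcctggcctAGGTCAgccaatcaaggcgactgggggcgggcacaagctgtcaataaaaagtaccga
Slc1a2: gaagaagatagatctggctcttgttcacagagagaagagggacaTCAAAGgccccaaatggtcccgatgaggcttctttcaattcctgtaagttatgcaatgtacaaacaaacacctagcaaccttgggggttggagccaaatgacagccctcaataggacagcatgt
Cyp2e1: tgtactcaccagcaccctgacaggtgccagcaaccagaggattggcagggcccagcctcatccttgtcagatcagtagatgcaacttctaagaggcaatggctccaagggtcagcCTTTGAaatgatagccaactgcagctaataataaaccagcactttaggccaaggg
Cyp2c29: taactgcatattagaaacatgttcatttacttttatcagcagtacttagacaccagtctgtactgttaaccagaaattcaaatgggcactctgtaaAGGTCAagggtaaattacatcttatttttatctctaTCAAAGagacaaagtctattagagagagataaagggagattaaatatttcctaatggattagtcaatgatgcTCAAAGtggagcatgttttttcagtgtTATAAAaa
Cyp2c37: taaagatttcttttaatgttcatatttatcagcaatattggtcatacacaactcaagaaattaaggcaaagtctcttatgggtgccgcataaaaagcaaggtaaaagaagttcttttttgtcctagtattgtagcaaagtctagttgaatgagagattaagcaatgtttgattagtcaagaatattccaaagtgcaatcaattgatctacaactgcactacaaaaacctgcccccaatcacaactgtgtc

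The table held 8 of the 10 members, and motifs were counted in the full 250 bases upstream of the start. CTTTGA was present in 4 of the 8, Slc1a2, Cyp2e1, Cyp1a2 and Cyp2c29, and in 13.8% of all 32851 promoters of the table. AGGTCA was present in Glul and Cyp2c29 (14% of all promoters) and TATAAA in Cyp2e1, Cyp1a2 and Cyp2c29 (12.4%). GCGTG and GTTAAT were in 0 of the 8, against 28.2% and 6.43% of all promoters. No match overlapped another. The TATAAA of Cyp2e1 and 1 of the 2 CTTTGA matches of Slc1a2 lie in bases left off above. The upstream base composition ran from 32.8% G and C in Cyp2c29 to 69.2% in Axin2. Cyp2c29 and Cyp2c37, which lie apart on the same strand of chromosome 19, differed in these letters: Cyp2c29 held matches to 3 of the 5 motifs and Cyp2c37 to 0. A match describes the sequence only, and no binding was measured.

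In HuBL liver the members spanned levels from that of a rare receptor to that of an abundant enzyme. Cyp2e1 came first at 5491 ± 493 CPM (SD, n = 4), followed by Glul at 955 ± 35.7, Cyp2c29 at 801 ± 72.9, Oat at 726 ± 242, Cyp1a2 at 554 ± 26.2 and Cyp2c37 at 288 ± 74.0 CPM. Slc1a2 stood at 105 ± 9.05 CPM, and Lgr5, Rhbg and Axin2 closed the order at 9.15 ± 0.892, 8.57 ± 3.61 and 8.26 ± 1.73 CPM. Cyp2e1 lay above every library of every other member. Oat overlapped its neighbours Glul, Cyp2c29 and Cyp1a2, and the last 3 genes overlapped each other, so their order is not resolved. The spread differed between members: the SD was 3.73% of the mean for Glul and 4.73% for Cyp1a2, but 33.4% for Oat and 42.1% for Rhbg. Lgr5, Rhbg and Axin2 rested on 74 to 258 counts per liver library, against 67451 to 112495 for Cyp2e1.

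The comparison of BT3xHuBL with HuBL liver asks how the added receptor goes with expression in the tissue these genes belong to. Of the 10 members, 8 had a log2 fold change above 0 (51.8% of the 12453 features tested did), and the median was 0.25 against 0.01 over all features. Glul and Slc1a2, the enzyme and the transporter of the perivenous glutamate and glutamine system, were higher in each BT3xHuBL library than in any HuBL library; 2.99% of all features had that pattern. None of the 10 passed an adjusted p of 0.05 in edgeR's quasi-likelihood test, and 0% of all features tested did. At an unadjusted p under 0.05 stood 3 of the 10, Slc1a2, Glul and Axin2, and 11.1% of all features. Limma-voom called 0 members. DESeq2 called 2, Glul and Slc1a2, among 133 features.

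**Figure D1:**
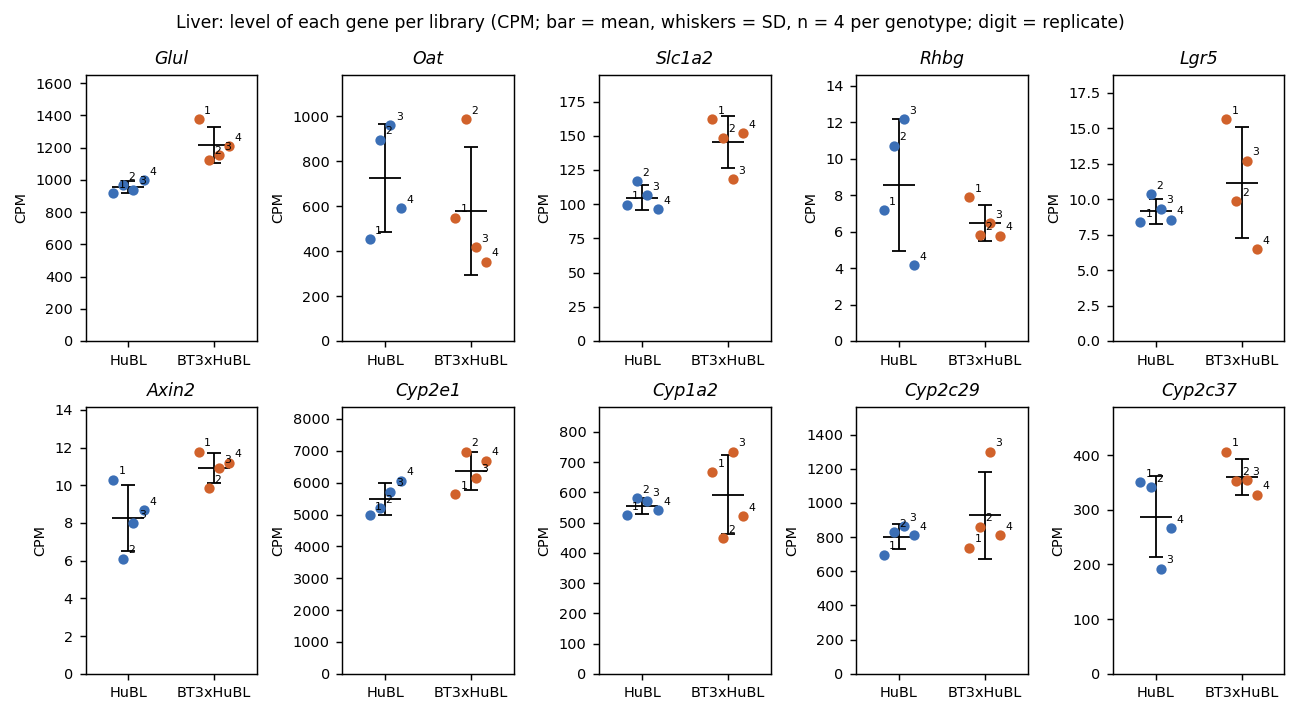
Level of each member in liver in CPM (vertical axis, from 0) by genotype, one point per library with its replicate number, with the mean as a bar and the SD as whiskers (n = 4 per genotype). Glul and Slc1a2 are the 2 panels in which the genotypes do not overlap, and Oat spreads from 354 to 989 CPM within BT3xHuBL.

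The first role is ammonia and glutamate handling. Glul (chr1:153899944-153909723, plus strand, GENCODE M21 on GRCm38) encodes glutamine synthetase, which joins ammonia to glutamate. Its level was 917, 966, 939 and 999 CPM in HuBL livers 1 to 4 and 1378, 1126, 1152 and 1208 CPM in BT3xHuBL livers 1 to 4. The HuBL values were close together, and BT3xHuBL library 1 was the highest of the 8. The log2 fold change was 0.35 (SE 0.10, 95% interval 0.12 to 0.57, edgeR adjusted p = 0.303). DESeq2 gave 0.34 (adjusted p = 0.0175). In GENCODE M21 Glul overlaps Teddm2 on the opposite strand and Mir8114 on its own, and Oat, Slc1a2, Rhbg, Lgr5, Axin2 and Cyp2c29 each overlap 1 other annotated gene. Whether the counting used strand is not stated, so reads of overlapping genes may be mixed. Of the 50-base words in the last 300 bases of the coding transcripts, 17.4% also occur in other transcripts, those of the pseudogene Glns-ps1 among them, so some Glul reads may have been split or lost.

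Slc1a2 (chr2:102658659-102790784, plus strand) encodes the glutamate transporter GLT-1, which brings the substrate of glutamine synthetase into the cell. It gave 99.7, 117, 107 and 96.3 CPM in HuBL livers 1 to 4 and 162, 149, 118 and 152 CPM in BT3xHuBL livers 1 to 4. The nearest values of the genotypes, 117 in HuBL library 2 and 118 in BT3xHuBL library 3, almost touched. The log2 fold change was 0.47 (SE 0.11, 95% interval 0.23 to 0.71, edgeR adjusted p = 0.249), the smallest p of the members and rank 61 of the 12453 features. DESeq2 gave 0.46 (adjusted p = 0.0214). Leaving out each library in turn kept Slc1a2 between 0.41 and 0.56 and Glul between 0.28 and 0.38.

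Oat (chr7:132557478-132576398, minus strand), ornithine aminotransferase, which turns ornithine into a precursor of glutamate, varied widely in both genotypes. The level was 454, 896, 962 and 593 CPM in HuBL livers 1 to 4 and 550, 989, 418 and 354 CPM in BT3xHuBL livers 1 to 4. Libraries of both genotypes lay at both ends of the range, and the log2 fold change was -0.33 (SE 0.37, edgeR adjusted p = 0.762). Rhbg (chr3:88242874-88254709, minus strand), a channel for ammonia in the cell membrane, gave 7.19, 10.7, 12.2 and 4.16 CPM against 7.89, 5.82, 6.45 and 5.77 CPM. HuBL library 4 was the lowest of the 8 and HuBL libraries 2 and 3 the highest, and the log2 fold change was -0.39 (SE 0.29, edgeR adjusted p = 0.624). The 4 genes of this role therefore did not share a direction.

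Oat levels were set against a score of circadian phase, since liver metabolism follows the time of day and the labels give no time of sampling. A clock score was taken as the mean log2 CPM of Dbp, Tef, Per2, Per3 and Nr1d2, which peak together, minus that of Arntl and Npas2, which peak in the opposite phase. It ran from -1.64 to -0.48 in HuBL livers and from -1.36 to 2.11 in BT3xHuBL livers, where library 2 stood apart at 2.11 and also had the highest Oat. Over the 8 livers Pearson's r of Oat with the score was 0.61 (exact permutation p = 0.0773, adjusted over the 10 members 0.715) and Spearman's rho 0.52 (exact permutation p = 0.197, adjusted 0.467). Without the 2 libraries farthest from the median score the pooled r fell to 0.39. With the mean of each genotype removed r was 0.93, and it was 0.96 within HuBL and 0.98 within BT3xHuBL (n = 4 each). These last values are a description over 8 libraries that was picked out after seeing the values. With the clock score as a covariate the log2 fold change of Oat was -0.88 (SE 0.16, edgeR adjusted p = 0.0613).

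The next role is the Wnt response itself. Lgr5 (chr10:115450311-115587780, minus strand), a receptor for R-spondins, gave 8.39, 10.3, 9.33 and 8.55 CPM in HuBL livers 1 to 4 and 15.7, 9.85, 12.7 and 6.49 CPM in BT3xHuBL livers 1 to 4. BT3xHuBL held both the highest and the lowest value, and the log2 fold change was 0.29 (SE 0.23, edgeR adjusted p = 0.644). It was 0.08 without BT3xHuBL library 1. Axin2 (chr11:108920349-108950783, plus strand), a scaffold of the complex that degrades beta-catenin and itself a beta-catenin target, gave 10.3, 6.10, 7.98 and 8.66 CPM against 11.8, 9.85, 10.9 and 11.2 CPM. Only HuBL library 1 reached into the BT3xHuBL range, and the log2 fold change was 0.40 (SE 0.16, 95% interval 0.05 to 0.75, edgeR adjusted p = 0.405).

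The last role is oxidation by cytochromes P450. Cyp2e1 (chr7:140763739-140774987, plus strand), which oxidises ethanol and small solvents, gave 4976, 5206, 5714 and 6067 CPM in HuBL livers 1 to 4 and 5629, 6971, 6162 and 6693 CPM in BT3xHuBL livers 1 to 4. Each of the 3 highest values was from BT3xHuBL, with BT3xHuBL library 1 inside the HuBL range, and the log2 fold change was 0.21 (SE 0.12, edgeR adjusted p = 0.506). Cyp1a2 (chr9:57676937-57683703, minus strand), which oxidises caffeine and aromatic amines and is a target of the aryl hydrocarbon receptor, gave 524, 580, 571 and 542 CPM against 667, 448, 734 and 522 CPM. BT3xHuBL libraries lay on both sides of the narrow HuBL range, and the log2 fold change was 0.10 (SE 0.15, edgeR adjusted p = 0.833). Without BT3xHuBL library 3 it was -0.02.

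Cyp2c29 (chr19:39269405-39330713, plus strand) and Cyp2c37 (chr19:39992424-40012243, plus strand) oxidise fatty acids such as arachidonic acid. Cyp2c29 gave 697, 830, 865 and 813 CPM in HuBL livers and 738, 861, 1300 and 811 CPM in BT3xHuBL (libraries 1 to 4). BT3xHuBL library 3 stood alone at 1300 CPM: the log2 fold change was 0.21 (SE 0.17, edgeR adjusted p = 0.644) with it and 0.0047 without it. Cyp2c37 gave 350.3, 341, 192 and 266 CPM against 406, 353, 354 and 328 CPM. HuBL library 3 was the lowest of the 8, and the log2 fold change was 0.32 (SE 0.17, edgeR adjusted p = 0.494), or 0.18 without that library. In the tail of Cyp2c37 3.59% of 50-base words also occur in Cyp2c54, and none were shared in the tail of Cyp2c29.

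Within the Cyp2c family, Cyp2c29 and Cyp2c37 included, 11 of 13 tested genes were above 0 and 2 below, with a median of 0.33, and 0 passed the edgeR test. The smallest p values in the family belonged to genes of low level: Cyp2c40 stood at 0.627 ± 0.419 CPM in HuBL livers and at 4.84 ± 5.14 CPM in BT3xHuBL livers (log2 fold change 2.95, SE 0.87, edgeR adjusted p = 0.327), and Cyp2c69 at 0.367 ± 0.396 and at 4.54 ± 6.47 CPM (3.66, SE 1.31, adjusted p = 0.401). BT3xHuBL library 4 held the highest value of both, 12.3 CPM of Cyp2c40 and 14.2 CPM of Cyp2c69, and without it the log2 fold changes were 1.90 and 1.87. The family includes genes of strong sex bias. Of 8 tested sex-biased liver genes the 2 female-biased ones were above 0 and the 6 male-biased ones below, with 0 passing. The list of 13 summed to 4290 to 7240 CPM per HuBL liver and 2630 to 5440 CPM per BT3xHuBL liver, ranges that overlapped. Most of the sum was Mup20, at 3520 ± 1180 and 2660 ± 752 CPM. Male-biased Cyp4a12a stood at 366 ± 37.4 and 237 ± 91.0 CPM (log2 fold change -0.63, edgeR adjusted p = 0.381). Female-biased Cyp2b9 stood at 0.937 ± 1.13 and 15.6 ± 20.8 CPM (3.98, adjusted p = 0.451), again highest in BT3xHuBL library 4, at 44.5 CPM, and the log2 fold change was 2.61 without it. Xist, which female cells make, averaged 0.0943 and 0.123 CPM, and Ddx3y, a gene of the Y chromosome, 118 and 122 CPM. The part of sex-biased expression in the P450 values was not tested. Targets of the receptors CAR, PXR and AHR, which induce P450 genes, were above 0 in 3 of 9 and below in 6, with a median of -0.10 and 0 passing; Nqo1 gave -0.34 (SE 0.17, edgeR adjusted p = 0.477) and Gstm1 -0.56 (SE 0.34, adjusted p = 0.55), or -0.18 without HuBL library 1.

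Other genes of the same zone and pathway did not form one direction. Among 19 further pericentral genes 11 were above 0 and 8 below, the median was 0.04, and 0 passed. The smallest p values were those of Nr1i3, the receptor CAR, with 111 ± 22.6 CPM and 154 ± 22.9 CPM in HuBL and BT3xHuBL (log2 fold change 0.47, SE 0.15, edgeR adjusted p = 0.334), and of Aldh1a1, a retinal dehydrogenase, with 1930 ± 169 and 1520 ± 160 CPM (-0.35, SE 0.12, adjusted p = 0.334). Of 30 tested Wnt and beta-catenin pathway genes 22 were above 0 and 8 below, with a median of 0.13 and 0 passing. The pair of smallest p lay below 0: Lgr4, another R-spondin receptor of the liver, gave -0.24 (SE 0.09, edgeR adjusted p = 0.376) and Tcf7l2, the main partner of beta-catenin on DNA, -0.27 (SE 0.11, adjusted p = 0.407). In the list for glutamine, glutamate and ammonia 6 of 16 were above 0 and 10 below, with a median of -0.04. There Aldh18a1, which starts proline synthesis from glutamate, gave 1.61 (SE 0.45, edgeR adjusted p = 0.300, or 1.02 without BT3xHuBL library 1) and Gls2, the liver glutaminase that splits glutamine and that also counts as a periportal gene, -0.39 (SE 0.16, adjusted p = 0.405).

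Periportal genes, the counterpart of the members at the other end of the lobule, lay mostly below 0. Of 20 tested, 18 were below 0 and 2 above, the median was -0.27, and 7 had an unadjusted p under 0.05 against 11.1% of all features; 0 passed the edgeR test. Cyp2f2, a periportal P450, stood at 1370 ± 214 CPM in HuBL livers and at 930.0 ± 142 CPM in BT3xHuBL livers (log2 fold change -0.56, SE 0.15, edgeR adjusted p = 0.281). Aldh1b1, a mitochondrial aldehyde dehydrogenase, stood at 135 ± 30.4 and 76.8 ± 19.2 CPM (-0.82, SE 0.21, adjusted p = 0.281). Summed per library, periportal genes took 14300 to 16100 CPM of a HuBL liver and 10900 to 14000 CPM of a BT3xHuBL liver. The members took 8040 to 9400 and 9570 to 10900 CPM, most of it Cyp2e1. Neither pair of summed ranges overlapped. As a mean of log2 CPM, in which no single gene dominates, the members ran from 7.35 to 7.57 in HuBL and from 7.45 to 7.747 in BT3xHuBL livers, and overlapped. Periportal genes ran from 8.822 to 9.035 and from 8.434 to 8.806 on that scale, without overlap. The 19 further pericentral genes took 7140 to 8040 CPM of a HuBL liver and 6820 to 7670 CPM of a BT3xHuBL liver, ranges that did overlap. The members and the lists were chosen with earlier results of these data known, so the counts describe these libraries and carry no test.

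**Figure D2:**
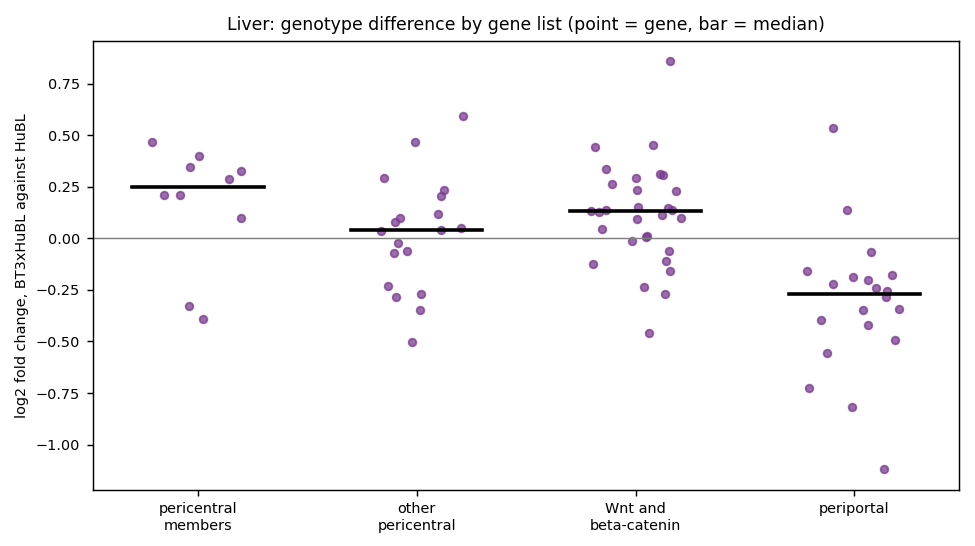
Log2 fold change of BT3xHuBL against HuBL in liver (vertical axis) for each tested gene of 4 lists, one point per gene, with the median as a bar. The medians are 0.25 for the 10 members, 0.04 for other pericentral genes, 0.13 for the Wnt and beta-catenin pathway and -0.27 for periportal genes, and none of these genes passed the edgeR test.

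Markers of the other liver cells are given beside these values, and their part in them was not tested. Sinusoidal endothelial markers summed to 145 to 168 CPM per HuBL liver and 135 to 214 CPM per BT3xHuBL liver, Kupffer cell markers to 330.0 to 557 and 211 to 469 CPM, and bile duct markers to 28.4 to 55.2 and 22.3 to 45.1 CPM. Smooth muscle markers summed to 19.5 to 40.6 and 13.6 to 22.4 CPM. The ranges overlapped in all 4 lists, and 0 of their markers were absent from every library. Fold changes were above 0 in 5 of 10 endothelial markers (median -0.0037), 2 of 5 Kupffer cell markers (-0.03), 1 of 5 tested smooth muscle markers (-0.56) and 3 of 4 bile duct markers (0.77), and 0 passed. The bile duct sum was mostly Sox9, named for that reason, at 36.0 ± 9.76 and 27.2 ± 8.23 CPM (log2 fold change -0.41), whereas Epcam (0.89, edgeR adjusted p = 0.44) and Krt19 (0.95, adjusted p = 0.451) were above 0, with 0.39 and 0.46 without BT3xHuBL library 1. Among proteins secreted by hepatocytes, 4 of 10 were above 0 and the median was -0.06.

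Members were also set against each other over the 8 livers. Because Glul and Slc1a2 each separate by genotype, their pooled correlation would only restate that separation, and 4 libraries per genotype are too few to test it within one. Over the 45 pairs the smallest adjusted p was 0.258 (exact permutation, Pearson), that of Glul and Slc1a2 themselves, and the next smallest was 0.715. Oat and Axin2 ran in opposite directions with r = -0.68 (exact permutation p = 0.058, adjusted 0.715), rho = -0.69 (exact permutation p = 0.0694, adjusted 0.623), r = -0.86 without the 2 libraries farthest from the median of Oat and -0.66 with genotype means removed. Lgr5 and Cyp1a2 ran together with r = 0.68 (exact permutation p = 0.0636, adjusted 0.715), rho = 0.74 (exact permutation p = 0.0458, adjusted 0.623), r = 0.69 without the 2 farthest and 0.67 with genotype means removed. Neither held after adjustment. Among 7990 features with a mean of at least 10 CPM over the livers, those most like Glul were Khdrbs3 (r = 0.95), Arrb1 (0.94) and Tsc2 (0.93), and those most like Cyp2e1 were Eif4b (0.96), A1cf (0.95) and Carm1 (0.93), each over the same 8 libraries. These r are the highest found among these features and are given as a description. Genotype means were not removed, so the r with Glul may also restate its separation by genotype.

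The comparison of HuBL liver with HuBL aorta shows how far the members are liver genes. Of the members 5, Glul, Oat, Slc1a2, Axin2 and Cyp2e1, passed the low-count filter in both tissues, and these 5 were called higher in liver by edgeR, as were 43.8% of the 11951 such features. The other 5 passed that filter through liver alone, so that their call was set by the filter; of all 14912 features tested, 39% were called higher and 83% in either direction. Cyp1a2, Cyp2c29 and Cyp2c37 had 0 counts in each of the 6 aorta libraries. Against a floor of 3 counts per library, 0.0733 CPM, Cyp1a2 was at least 7560-fold, Cyp2c29 at least 10900-fold and Cyp2c37 at least 3920-fold higher in liver. Rhbg had 0, 6 and 4 counts in HuBL aortas and 27, 1 and 8 in BT3xHuBL aortas, and Lgr5 5, 0 and 1 against 4, 43 and 0, so that 1 library held most of the Lgr5 counts. Both were too low to be tested between genotypes there.

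The 5 members that passed the filter in both tissues kept a level in the aorta, lowest for Slc1a2. On the scale of the joint fit, Glul was higher in liver by a log2 fold change of 2.54 (SE 0.13, edgeR adjusted p = 5.43e-11), Oat by 2.07 (SE 0.33, adjusted p = 4.3e-05) and Axin2 by 2.24 (SE 0.19, adjusted p = 1.96e-08). Slc1a2 and Cyp2e1 differed far more, by 8.22 (SE 0.34) and 8.74 (SE 0.32). For Rhbg and Lgr5, kept by the filter through liver alone, the fit gave 7.80 (SE 0.81) and 8.63 (SE 0.91). These values rest on the few aorta counts given above and carry no test. Leaving out 1 library moved Rhbg between 7.14 and 8.66 and Lgr5 between 8.24 and 10.11. TMM scaling here spans both tissues, so these folds are not ratios of the CPM printed for each tissue. The median over all features was -0.10 with TMM, -0.29 with upper quartile scaling and -0.24 with no low-count filter, and under each scaling tried the 5 members that passed the filter in both tissues stayed higher. Tissue cannot be told apart from library batch or depth.

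In the aorta 5 members were tested between genotypes: Glul, Oat, Slc1a2, Axin2 and Cyp2e1. Of these, 4 were above 0 (48.5% of 15400 features were), with a median of 0.36 against -0.0044 over all features. Cyp2e1 and Slc1a2 did not overlap between genotypes, with BT3xHuBL higher, a pattern of 4.38% of all features. None of the 5 passed edgeR's quasi-likelihood test, where 0.026% of features did, and 0 passed in DESeq2 or limma-voom. At an unadjusted p under 0.05 stood 3 of the 5, Glul, Cyp2e1 and Slc1a2, and 4.08% of all features.

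**Figure D3:**
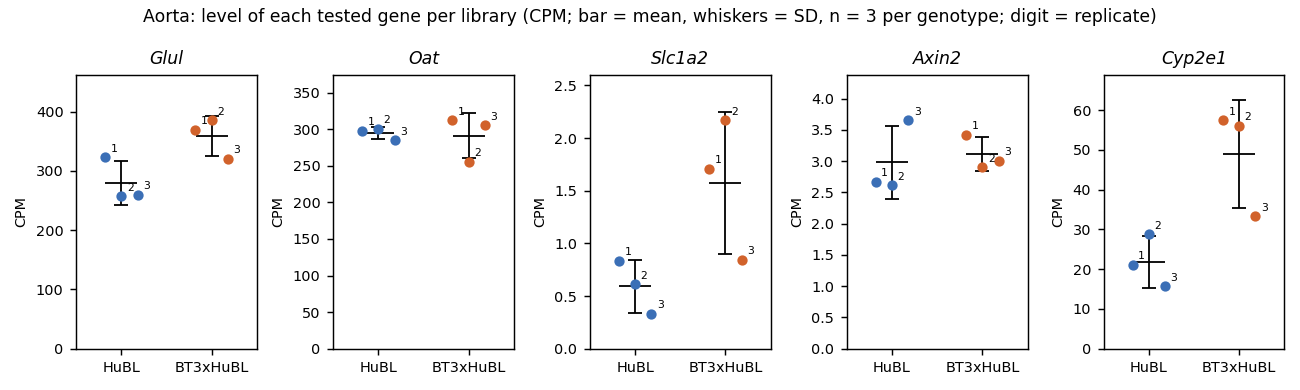
Level of the 5 tested members in aorta in CPM (vertical axis, from 0) by genotype, one point per library with its replicate number, with the mean as a bar and the SD as whiskers (n = 3 per genotype). Cyp2e1 and Slc1a2 do not overlap, and BT3xHuBL library 3 is the lowest of its genotype for Cyp2e1 (33.4 CPM), Slc1a2 (0.845 CPM) and Glul (321 CPM).

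Cyp2e1 gave 21.1, 28.8 and 15.7 CPM in HuBL aortas 1 to 3 and 57.5, 56.1 and 33.4 CPM in BT3xHuBL aortas 1 to 3. BT3xHuBL library 3 lay near the top HuBL value and the other BT3xHuBL libraries far above it. The log2 fold change was 1.17 (SE 0.31, 95% interval 0.38 to 1.95, edgeR adjusted p = 0.987). Of the 50-base words in its tail 17.3% also occur in other genes. Slc1a2 gave 0.838, 0.611 and 0.332 CPM against 1.71, 2.17 and 0.845 CPM, resting on 54, 25 and 21 counts against 98, 145 and 52. The highest HuBL and lowest BT3xHuBL values were almost equal, and the log2 fold change was 1.41 (SE 0.48, edgeR adjusted p = 1). Glul gave 323, 257 and 259 CPM against 369, 385 and 321 CPM. HuBL library 1 lay just above BT3xHuBL library 3, and the log2 fold change was 0.36 (SE 0.11, 95% interval 0.11 to 0.60, edgeR adjusted p = 0.901).

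The other members tested in the aorta gave values near 0. Oat gave 298, 301 and 285 CPM in HuBL aortas and 312, 255 and 305 CPM in BT3xHuBL (log2 fold change -0.02, SE 0.09, 95% interval -0.22 to 0.19, edgeR adjusted p = 1). Axin2 gave 2.67, 2.62 and 3.65 CPM against 3.42, 2.90 and 3.01 CPM (0.06, SE 0.22, 95% interval -0.43 to 0.55, edgeR adjusted p = 1). In both genes the values of the genotypes were interleaved.

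Adipocyte and clock genes are given here beside the aorta values, since aortas carry fat and Cyp2e1 and Glul are also made in adipocytes. All 12 adipocyte markers had a fold change above 0 (48.5% of all features did), with a median of 0.31 and 0 passing. They summed to 2340 to 2850 CPM per HuBL aorta and 2750 to 3240 CPM per BT3xHuBL aorta, ranges that overlapped, and 0 of the 12 were absent. Most of the sum was Lpl, at 1600 ± 195 and 1710 ± 390 CPM. Of 8 brown adipocyte markers 2 were above 0 and 6 below, with a median of -0.20 and 0 passing. The adipocyte score, the mean log2 CPM of the 12 markers, ran from 5.162 to 5.786 in HuBL aortas and from 5.794 to 6.333 in BT3xHuBL aortas. These ranges did not overlap, by a narrow gap. With that score as a covariate Cyp2e1 gave 0.83 (SE 0.34), Slc1a2 1.03 (SE 0.60) and Glul 0.27 (SE 0.15). Because the score itself separated the genotypes, these fits cannot tell genotype apart from it. The defining hepatocyte product Alb stood at 0.265 and 0.0553 CPM in the respective genotypes and Ttr at 0 and 0.00499 CPM. Of the 4 hepatocyte products tested in aorta 1 was above 0 and 3 below, with a median of -0.04 and 0 passing. Ahsg stood at 6.25 ± 1.21 and 8.10 ± 2.45 CPM, and Trf, most of that list's sum, at 194 ± 2.99 and 193 ± 30.7 CPM. Markers of Schwann cells and glia, which also make Slc1a2, summed to 61.9 to 64.6 CPM and 59.7 to 75.7 CPM, and 0 of the 7 were absent. Of these 7, 6 were above 0 and 1 below, with a median of 0.38 and 0 passing. The markers of smallest p carried the sum and differed in sign: S100b stood at 23.9 ± 0.480 and 19.7 ± 0.346 CPM (log2 fold change -0.28, edgeR adjusted p = 0.899) and Mbp at 28.5 ± 1.79 and 32.5 ± 3.22 CPM (0.19, adjusted p = 1). The part of these cells in the member values was not tested.

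Among clock genes, of 13 tested 10 were above 0, and 1, the clock output factor Dbp, rose from 32.4 ± 0.235 to 88.0 ± 17.3 CPM (SD, n = 3, log2 fold change 1.44, edgeR adjusted p = 0.0089). The call of Dbp ended on leaving out HuBL library 1, 2 or 3 (edgeR adjusted p = 0.0651, 0.111 and 0.165), while the log2 fold change stayed at 1.44, 1.44 and 1.46. The clock score was 0.51, 0.78 and 0.59 in HuBL aortas 1 to 3 and 2.99, 3.33 and 1.85 in BT3xHuBL aortas 1 to 3, without overlap, and BT3xHuBL library 3 was the lowest of its genotype as it was for Cyp2e1. With the score as a covariate the fold changes lost their size or turned: Cyp2e1 gave -0.13 (SE 0.49), Slc1a2 -0.50 (SE 1.07), Glul 0.06 (SE 0.26) and Oat 0.21. The score holds the clock genes of smallest p in this same comparison, Dbp and Per2 (edgeR unadjusted p = 1.46e-06 and 2.84e-05). Other genes of the clock list were left out of it. Its separation of the genotypes and the loss of fold change under it therefore carry no test. Genotype and clock score cannot be told apart in these 6 aortas. In the liver, where the score ranges of the genotypes overlapped, the same covariate left Glul at 0.38 and Slc1a2 at 0.44.

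**Figure D4:**
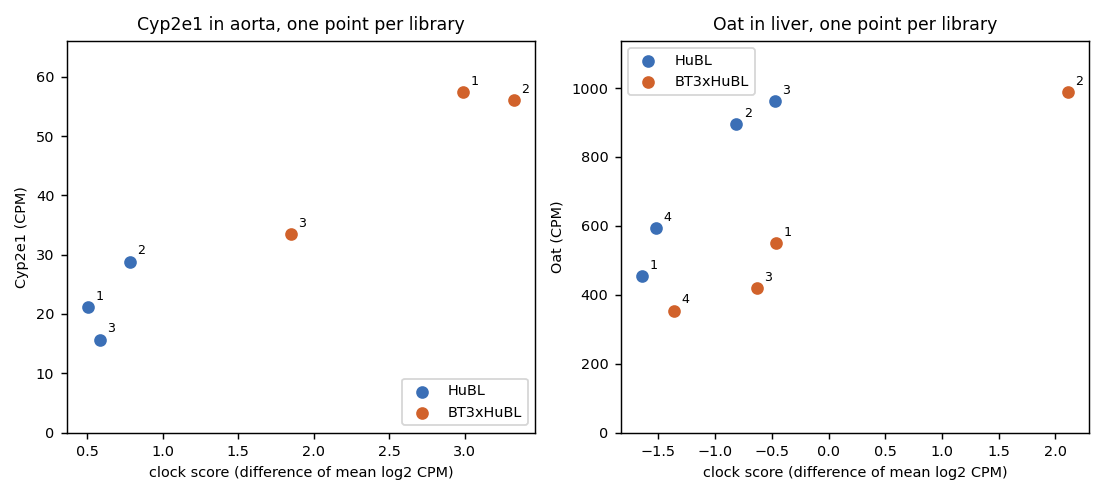
Cyp2e1 in aorta (left, CPM, n = 3 per genotype) and Oat in liver (right, CPM, n = 4 per genotype) against the clock score (difference of mean log2 CPM, horizontal axis), one point per library with its replicate number. In the aorta the genotypes do not overlap on the clock score, and in the liver BT3xHuBL library 2 stands apart at 2.11 with 989 CPM of Oat.

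Whether the genotype difference itself differed between tissues was tested for the 5 members kept in both. None passed in edgeR, where 0% of 11951 features did, and 0 passed in DESeq2 or limma-voom. An unadjusted p under 0.05 was reached by 2 of the 5 and by 8.61% of all features. The liver minus aorta difference in log2 fold change was -0.97 for Cyp2e1 (SE 0.30, edgeR adjusted p = 0.422) and -0.95 for Slc1a2 (SE 0.39, adjusted p = 0.536). For Glul the difference of differences was -0.02 (SE 0.17, 95% interval -0.37 to 0.33), for Oat -0.33 (SE 0.44) and for Axin2 0.33 (SE 0.25). The Glul fold changes, 0.35 in liver and 0.36 in aorta, lay side by side, and with this interval smaller differences between tissues were not resolved.

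**Figure D5:**
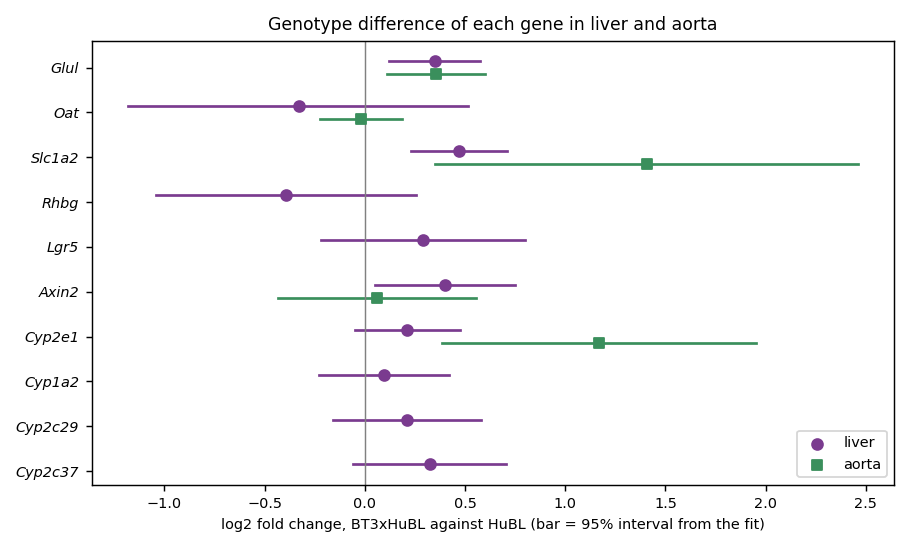
Log2 fold change of BT3xHuBL against HuBL (horizontal axis) for each member in liver (circles) and, for the 5 members tested there, aorta (squares), with the 95% interval of the edgeR fit. Glul lies at 0.35 and 0.36 in the 2 tissues, while the aorta values of Slc1a2 (1.41) and Cyp2e1 (1.17) lie above those in liver with wider intervals.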

How the data were processed

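RNA of liver (n = 4 per genotype) and aorta (n = 3 per genotype) was measured by Lexogen QuantSeq V2 after Qiagen RNeasy isolation, per the labels' protocols. The deposited values are raw counts per feature, made by the authors with HTSeq 2.0 on GRCm38 per the submitters' processing notes; the aligner, strand setting and annotation are not stated there or in the labels. The deposited feature starts lay a median of 192 kb from GENCODE M21 (1063 of 23005 matched features within 1 kb), so positions come from GENCODE M21 by symbol.

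Liver and aorta were fitted separately in R 4.3.3 by edgeR 4.0.16 (filterByExpr, TMM, robust quasi-likelihood F-test, two-sided, Benjamini-Hochberg over all features tested, threshold 0.05), and all 14 libraries jointly for the interaction and for liver against aorta. SE is the log2 fold change divided by the root of F, and 95% intervals use the fit's degrees of freedom. The fits were checked on simulated data. Clock and adipocyte scores are mean log2 CPM with a prior count of 2. Correlations used exact permutations in SciPy 1.17.1, and plots matplotlib 3.10.9. Floors from counts allow for counting error alone.

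All 10 members are named, with up to 2 genes of smallest p per list, genes of a list past the threshold, and the 3 features most correlated with Glul and with Cyp2e1; predicted genes are not named. Alb and Ttr were named in aorta as defining hepatocyte products, and Sox9, Xist, Ddx3y, Lpl, Trf and Mup20 after their values were seen. Members and lists were chosen with earlier results of these data known. Alternatives were DESeq2 1.42.0, limma-voom 3.58.1, other scalings and filters, a fit without robust weights, both tissues in one fit, the replicate number as a block, covariates for clock and adipocyte score, and fits without 1 library.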

Additional observations from a re-analysis of the deposited data

How the results depend on the processing

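In liver, the count of features called, 0 with edgeR, was 133 with DESeq2, 5 with both tissues in one fit, 44 with the clock score as a covariate, and 0 to 5 with each library left out (5 without BT3xHuBL library 2, 2 without library 3). DESeq2 alone called members there, 2 (Glul and Slc1a2). The member values kept their direction and call in 177 of 180 liver, 75 of 83 aorta and 101 of 108 interaction refits. Cyp1a2 in liver turned to -0.022 without BT3xHuBL library 3, and the median of other pericentral genes ran from -0.0171, without the same library, to 0.0861. In the aorta, the count of 4 was 68 with DESeq2, 9 with no low-count filter, 7 with both tissues, 0 with the adipocyte score and 1 with the clock score, and 0 to 27 with each library left out: 27 without BT3xHuBL library 3, 0 without HuBL library 2 or 3, 2 without HuBL library 1. With the clock score Cyp2e1 turned to -0.13, Slc1a2 to -0.50 and Oat to 0.21. Values near 0 also turned on leaving out 1 library: Oat, which ran from -0.067 to 0.073 (highest without BT3xHuBL library 2), and Axin2, from -0.024 to 0.24. In the interaction the count of 0 was 42 with DESeq2 and 0 to 4 with each library left out (4 without BT3xHuBL liver 2), and Glul ran from -0.14 to 0.040. Of the other genes named, refitted after seeing the data, DESeq2 called Aldh18a1, Cyp2f2 and Aldh1b1 in liver and Slc1a3 in aorta. Dbp in aorta was not called with both tissues in one fit (1.45), the adipocyte score (1.38) or the clock score (0.66), and Mbp turned to -0.11 with the clock score. The cause of these changes was not tested.

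Replicate numbers did not pair the samples: same-numbered libraries correlated at -0.042, 0.16, 0.10 and 0.069 in liver and -0.058, 0.14 and 0.0072 in aorta. With the replicate number as a block the counts were 10 features in liver, 14 in aorta and 3 in the interaction, and 1 aorta member, Cyp2e1, was called (log2 fold change 1.17, edgeR adjusted p = 0.00503). With 3 or 4 libraries per group and edgeR's adjustment over all features, the 95% intervals printed give the sizes that these data can resolve; Rhbg, Lgr5 and Axin2 in liver and Slc1a2 in aorta rest on few counts.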

Other observations

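Among the cells around the hepatocytes, the liver endothelial marker of smallest p was Stab2, a scavenger receptor, at 28.7 ± 1.67 CPM in HuBL and 37.2 ± 4.01 CPM in BT3xHuBL livers (SD, n = 4, log2 fold change 0.38, SE 0.10, edgeR adjusted p = 0.281). Tagln, an actin-binding protein of smooth muscle, gave 10.3 ± 1.94 and 6.91 ± 1.36 CPM (-0.56, SE 0.18, edgeR adjusted p = 0.329). In the aorta the periportal P450 Cyp2f2 gave 9.98 ± 5.29 and 5.29 ± 1.03 CPM (SD, n = 3, log2 fold change -0.91, SE 0.38, edgeR adjusted p = 1). HuBL library 2 was the highest at 15.8 CPM, and without it the log2 fold change was -0.42. The glutamate transporter Slc1a3, a relative of Slc1a2, gave 5.98 ± 0.213 and 10.9 ± 2.92 CPM in aorta (0.87, SE 0.19, edgeR adjusted p = 0.428), and Avpr1a, a vasopressin receptor that pericentral hepatocytes also make, 5.44 ± 1.67 and 2.92 ± 0.879 CPM (-0.89, SE 0.28, adjusted p = 0.915). Avpr1a ran against most of its list: of the 9 further pericentral genes tested in aorta 6 were above 0 and 3 below (median 0.09). Of 11 periportal genes 5 were above 0 and 6 below, and of 18 glutamine, glutamate and ammonia genes 10 and 8. Over all features 48.5% were above 0. None of the genes named here passed the edgeR test.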
